A study of Mus musculus with 2 samples.

Results

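The cells described here are post-mitotic immature neutrophils of the mouse cochlea, 1715 of 6803 deposited cell barcodes. They comprised 809 barcodes of an implanted library and 906 of a non-implanted library. A barcode was taken when Camp, Ngp and Ltf, which encode 3 proteins of the secondary granules of neutrophils, together made up at least 1.5% of its UMIs (unique molecular identifiers, which count captured transcripts). Limits on transcripts of other programmes then applied: at most 2 UMIs of the cycle genes Top2a, Mki67, Hist1h1b, Ube2c, Birc5 and Cdk1, fewer than 20 of the primary granule genes Elane, Prtn3, Mpo and Ctsg, fewer than 5 of the macrophage genes C1qa, C1qb and C1qc, and fewer than 4 of the monocyte genes Ccr2 and F13a1. Before that, a filter kept barcodes that had 200 genes or more and took at most 10% of their UMIs from mitochondrial genes. The cells were thus chosen by measured transcript levels, and the levels of these 18 genes, like the contrasts with other barcodes that they define, are given as a description.

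Both libraries were droplet-based single-cell RNA libraries of cells enriched with magnetic beads for CD11b, a surface integrin of neutrophils, monocytes and macrophages. The implanted library came from cochleae 33 days after a cochlear implant electrode had been placed, and the non-implanted library from cochleae without one. Both came from C57BL/6J mice that carried a GFP allele at Cx3cr1 (CX3CR1+/GFP) and a YFP transgene under the neuronal Thy1 promoter (Thy1+/YFP), with males and females pooled. The labels of these libraries do not give the age, the number of mice pooled, whether the electrode released dexamethasone, which the series title names, or whether the non-implanted cochleae were the opposite ears. There was 1 library per group, so no difference has a replicate check and no test was made. The 95% intervals cover counting error only. They take UMIs as independent and leave out the spread between cells and animals.

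Neutrophils mature in a fixed order. Dividing precursors first make the primary (azurophil) granule proteases, then secondary (specific) granule proteins under the transcription factor encoded by Cebpe, and the last divisions end while secondary granules are being filled. The metamyelocytes and band cells that follow no longer divide, make gelatinase granules, and acquire the receptors and inflammatory transcripts of mature neutrophils while granule gene transcripts decline. In adult mice this sequence takes place mainly in bone marrow, and the bone around the cochlea also contains marrow. Where the cells measured here had been in the tissue was not recorded.

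The genes whose transcripts chose the cells lie within 1.20 Mb of each other on chromosome 9 of GRCm38 (GENCODE M21 annotation): Camp at chr9:109847379-109849617 on the minus strand, Ngp at chr9:110419747-110423012 and Ltf at chr9:111019271-111042767, both on the plus strand. Camp encodes the cathelicidin precursor, Ngp neutrophilic granule protein and Ltf the iron-binding protein lactoferrin. Their promoters are shown because these transcripts chose the cells. Each is 300 bases of RefSeq sequence on GRCm38.p6, 250 bases before to 50 after the start, 5′ to 3′ on the gene's strand, at chr9:109849407-109849706 for Camp, chr9:110419558-110419857 for Ngp and chr9:111019042-111019341 for Ltf. Capitals mark matches, on either strand, to the letters TTNNGNAA (C/EBP) or GAGGAA (PU.1).
Camp: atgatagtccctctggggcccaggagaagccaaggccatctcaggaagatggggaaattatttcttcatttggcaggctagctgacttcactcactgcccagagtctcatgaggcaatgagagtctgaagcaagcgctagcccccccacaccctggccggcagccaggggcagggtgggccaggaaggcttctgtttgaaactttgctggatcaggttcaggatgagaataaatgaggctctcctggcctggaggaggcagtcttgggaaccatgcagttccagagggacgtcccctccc
Ngp: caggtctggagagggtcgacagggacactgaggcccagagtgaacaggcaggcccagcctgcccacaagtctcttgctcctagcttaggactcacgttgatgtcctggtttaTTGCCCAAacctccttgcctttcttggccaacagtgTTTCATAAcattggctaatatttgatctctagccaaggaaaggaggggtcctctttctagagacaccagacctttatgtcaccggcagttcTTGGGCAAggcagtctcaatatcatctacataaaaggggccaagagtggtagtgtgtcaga
Ltf: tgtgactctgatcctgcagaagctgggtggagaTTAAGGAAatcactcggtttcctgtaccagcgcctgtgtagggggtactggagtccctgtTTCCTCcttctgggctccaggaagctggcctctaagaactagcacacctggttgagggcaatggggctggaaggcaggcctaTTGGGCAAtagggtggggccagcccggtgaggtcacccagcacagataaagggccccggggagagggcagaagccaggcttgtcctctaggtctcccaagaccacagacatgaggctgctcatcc
The Ngp window held 3 C/EBP matches, the Ltf window 2 C/EBP matches and 1 PU.1 match, and the Camp window neither motif. Of 32817 RefSeq promoter windows of this length, 40.7% held the C/EBP letters and 28.3% the PU.1 letters. A match is a match of letters and not a measured binding site. The RefSeq starts lie inside the GENCODE genes given above, furthest for Camp. Part of the 250 bases before each start thus lies within the GENCODE gene, and the windows are not equally far upstream.

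The transcript share of Camp, Ngp and Ltf separated the barcodes into a low and a high mode, with few between them. Past the filter on detected genes and mitochondrial UMIs, 3149 of 3231 implanted and 3513 of 3572 non-implanted barcodes remained, and 1247 (implanted) and 1386 (non-implanted) of them reached 1.5%. One or more of the upper limits then removed 438 (implanted) and 480 (non-implanted), of which the cycle limit alone or with others accounted for 420 (implanted) and 460 (non-implanted). Just inside the threshold, at 1.5 to 2.0%, lay 21 (implanted) and 16 (non-implanted) cells, and just outside it, at 1.0 to 1.5% with the other limits met, 22 (implanted) and 40 (non-implanted). Cells on both sides of the line had similar levels of other genes. Retnlg, for example, stood at 38226 CPM (UMIs of the gene per 1000000 UMIs of the class) just inside and 39830 CPM just outside in the implanted library, and at 41341 CPM just inside and 42115 CPM just outside in the non-implanted library. The libraries shared 6 barcode sequences, and 0 of them were immature neutrophils in both.

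**Figure D1:**
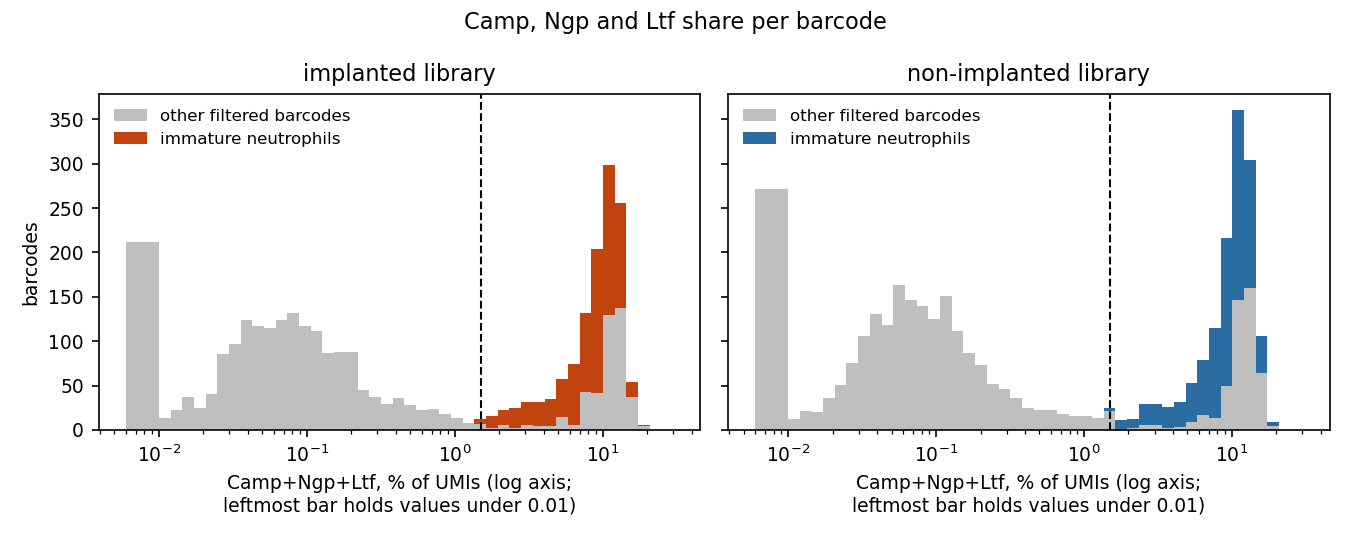
Number of filtered barcodes (vertical axis) by the percentage of their UMIs that came from Camp, Ngp and Ltf (horizontal log axis), for the implanted library at left and the non-implanted library at right. Coloured bars are the immature neutrophils (809 implanted, 906 non-implanted), grey bars all other barcodes, and the dashed line is the 1.5% threshold, which falls inside 1 bar.

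Within the group, Camp, Ngp and Ltf were not equally abundant. Their median share of a cell's UMIs was 3.99% (implanted) and 4.39% (non-implanted) for Camp, 3.76% (implanted) and 3.92% (non-implanted) for Ngp, and 1.06% (implanted) and 1.09% (non-implanted) for Ltf. Camp was the highest of the 3 in 444 implanted cells (54.9%) and 536 non-implanted cells (59.2%), Ngp in 363 implanted (44.9%) and 368 non-implanted (40.6%), and Ltf in 2 cells of each library. Together they took a median of 9.11% of the UMIs of an implanted and 9.56% of those of a non-implanted cell, while S100a8 and S100a9, which encode the calprotectin subunits, took 32.3% (implanted) and 33.0% (non-implanted). These 5 transcripts thus made up a large part of every CPM total. The cells had a median of 5326 UMIs and 1490 genes among implanted and 5980 UMIs and 1568 genes among non-implanted cells, and 4816447 (implanted) and 5849689 (non-implanted) UMIs in all.

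The levels of genes outside the rule bear on the label. Ly6g, the surface marker of mouse neutrophils, had 945 CPM in implanted and 1004 CPM in non-implanted immature neutrophils, and at least 1 UMI in 91.3% (implanted) and 94.7% (non-implanted) of them. After each cell was thinned at random to 1000 UMIs, those shares were 55.6% (implanted) and 58.1% (non-implanted). They were 2.63% (implanted) and 3.77% (non-implanted) of C1q-positive cells, which served as background for free RNA. C1q-positive cells had median depths of 4522.5 (implanted) and 4977 (non-implanted) UMIs before thinning. Thinning left out cells under 1000 UMIs, which were 40 of 192 implanted and 31 of 190 non-implanted C1q-positive cells. Of immature neutrophils it left out 8 (implanted) and 7 (non-implanted). Cebpe stood likewise at 25.7% (implanted) and 29.8% (non-implanted) of thinned immature neutrophils, against 0 of 152 implanted (upper limit 2.40%) and 1.26% of non-implanted C1q-positive cells. Both markers thus lay above the share in C1q-positive cells. Among cycling cells, defined below, thinned shares were 27.0% (implanted) and 27.7% (non-implanted) for Ly6g and 44.5% (implanted) and 42.1% (non-implanted) for Cebpe. Cebpe was thus found more often in cycling cells than in immature neutrophils. Camp/Ngp/Ltf-low neutrophils, also defined below, had 21.2% (implanted) and 20.4% (non-implanted) for Ly6g and 3.28% (implanted) and 3.32% (non-implanted) for Cebpe. CD11b itself gave no check of the bead selection: the row of Itgam with the identifier ENSMUSG00000030786.18 had 0 UMIs in both libraries, and a second row of that name had 49 (implanted) and 58 (non-implanted). Cells with no cycle UMI numbered 711 (implanted) and 810 (non-implanted), with 1 such UMI 84 (implanted) and 75 (non-implanted), and with 2 such UMIs 14 (implanted) and 21 (non-implanted).

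Transcripts of 30 other replication and mitosis genes, which the rule did not use, can be set beside the cycle limit. Their sum was 1707 CPM in immature neutrophils of each library, against 9765 CPM (implanted) and 9311 CPM (non-implanted) in cycling cells, that is, barcodes past the same 1.5% minimum that only the cycle limit kept out (326 implanted and 383 non-implanted cells). Most of that sum came from H2afz, a histone variant gene also made outside the cell cycle, at 1077 CPM (implanted) and 1008 CPM (non-implanted). Stmn1, which encodes a microtubule regulator of mitosis, had 14.3 CPM (implanted) and 16.1 CPM (non-implanted), against 739 CPM (implanted) and 665 CPM (non-implanted) in cycling cells. Rrm2, a subunit of ribonucleotide reductase, had 1.04 CPM (implanted) and 1.71 CPM (non-implanted), against 253 CPM (implanted) and 222 CPM (non-implanted) in cycling cells. Among immature neutrophils with 0, 1 and 2 cycle UMIs the sum was 1613, 2101 and 2958 CPM among implanted and 1593, 2084 and 3653 CPM among non-implanted cells. The few cells at the limit therefore had more replication transcripts than those with no cycle UMI. In Camp/Ngp/Ltf-low neutrophils, defined below, the sum was lower than in immature neutrophils, at 859 CPM (implanted) and 912 CPM (non-implanted). The cycle limit counts raw UMIs, and cycling cells were deeper than immature neutrophils, with a median of 12380.5 (implanted) and 12997 (non-implanted) UMIs.

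The shares of immature neutrophils in the libraries differed by less than the counting error. Of the filtered implanted barcodes they were 25.7%, with a 95% Clopper-Pearson interval of 24.2 to 27.3%, and of the filtered non-implanted barcodes 25.8%, with an interval of 24.3 to 27.3%, a difference of -0.0992 percentage points (Newcombe interval -2.20 to 2.01). Camp/Ngp/Ltf-low neutrophils were barcodes under the threshold that met the same upper limits, had at least 4% of UMIs from S100a8 and S100a9, and were not rich in B cell or hemoglobin transcripts. They numbered 1050 implanted cells, or 33.3%, and 1423 non-implanted cells, or 40.5%, a difference of -7.16 points (-9.47 to -4.84). There were thus 0.770 immature cells per low neutrophil among implanted and 0.637 among non-implanted cells. As a share of both classes together, a denominator chosen after seeing the data, immature cells were 43.5% (implanted) and 38.9% (non-implanted), a difference of 4.62 points (1.62 to 7.61). Fewer low neutrophils and more of other cells in 1 library cannot be told apart from these shares, and bead selection and dissociation of the pooled tissue also act on them.

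Set beside Camp/Ngp/Ltf-low neutrophils, immature neutrophils had high secondary granule and low late maturation and inflammatory transcripts. Of 8660 genes with at least 50 UMIs, rule genes included, 608 (7.02%) were at least 2-fold higher and 867 (10.0%) at least 2-fold lower in both libraries. These calls used the scale of CPM plus 5, as did all log2 ratios here. When Camp, Ngp and Ltf were left out of the totals, the split was 771 higher and 732 lower, and the median log2 ratio over all genes was 0.19 (implanted) and 0.13 (non-implanted) instead of 0.09 (implanted) and 0.02 (non-implanted). These cells were divided by transcripts of the same programme, so the contrast describes the 2 classes and is no evidence for the division. The low neutrophils had a median of 2706.5 (implanted) and 2765 (non-implanted) UMIs. At an equal 1000 UMIs per cell, immature neutrophils showed a median of 426 (implanted) and 416 (non-implanted) genes, against 512 (implanted) and 510 (non-implanted) in low neutrophils.

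Among the secondary granule genes, 7 of 12 compared were at least 2-fold higher in both libraries and 0 lower, with a median log2 ratio of 1.90 (implanted) and 1.75 (non-implanted). Chil3, which encodes the chitinase-like protein Ym1, had the largest log2 ratio of the genes compared outside the rule. It had 4863 CPM (implanted) and 5196 CPM (non-implanted), against 121 CPM (implanted) and 128 CPM (non-implanted) in low neutrophils. Its ratio was 40.2 (36.2 to 44.6) among implanted and 40.5 (37.2 to 44.2) among non-implanted cells. Lcn2, which encodes the siderophore-binding lipocalin 2, stood at 14023 CPM (implanted) and 15280 CPM (non-implanted), against 2715 CPM (implanted) and 2977 CPM (non-implanted). Orm1, which encodes an acute-phase glycoprotein, was close to 0 in low neutrophils, with 109 CPM (implanted) and 148 CPM (non-implanted), against 0.332 CPM (implanted) and 0.714 CPM (non-implanted). Its log2 ratio depended on the settings, from 2.67 to 6.37 (implanted) and from 3.02 to 6.44 (non-implanted). Cybb, the gene of the large membrane subunit of the NADPH oxidase, had 1989 CPM (implanted) and 1949 CPM (non-implanted), against 253 CPM (implanted) and 278 CPM (non-implanted), while Mmp8, neutrophil collagenase, had 1393 CPM (implanted) and 1345 CPM (non-implanted), against 1488 CPM (implanted) and 1566 CPM (non-implanted). Mmp8 thus differed little between the classes, as did Hp, the haptoglobin gene, with log2 ratios of -0.13 (implanted) and -0.09 (non-implanted). After thinning, Camp had a UMI in 26.1% (implanted) and 23.0% (non-implanted) of low neutrophils and in 19.7% (implanted) and 14.5% (non-implanted) of C1q-positive cells, and the part of free RNA in the low class was not tested.

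Genes of the earlier granule stage and its regulators were partly still present. Of 8 primary granule genes outside the rule, 4 were at least 2-fold higher and 1 lower. Fcnb, which encodes the lectin ficolin B, had 165 CPM (implanted) and 193 CPM (non-implanted), against 5.64 CPM (implanted) and 5.47 CPM (non-implanted) in low neutrophils. Ms4a3, a membrane protein gene of granulocyte precursors, had 18.9 CPM (implanted) and 17.6 CPM (non-implanted), against 0.995 CPM (implanted) and 0.952 CPM (non-implanted), and Serpinb1a, an inhibitor of the granule proteases, 474 CPM (implanted) and 508 CPM (non-implanted), against 29.2 CPM (implanted) and 33.3 CPM (non-implanted). Srgn, the granule proteoglycan serglycin, was lower, with 1329 CPM (implanted) and 1210.0 CPM (non-implanted), against 7326 CPM (implanted) and 7414 CPM (non-implanted). Among 22 transcription factors of granulopoiesis, 4 were higher and 6 lower. Cebpe led the higher ones, at 357 CPM (implanted) and 403 CPM (non-implanted), against 37.5 CPM (implanted) and 34.5 CPM (non-implanted), followed by Ets1, Myb and Gfi1. Cebpb, Junb, Zeb2, Bcl6, Mxd1 and Stat3 were the lower ones, with Cebpb at 586 CPM (implanted) and 428 CPM (non-implanted), against 3287 CPM (implanted) and 2859 CPM (non-implanted).

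Late maturation, receptor and inflammatory genes stood lower. In the late maturation list 17 of 24 genes were at least 2-fold lower and 0 higher, with a median of -1.81 (implanted) and -1.85 (non-implanted). Cxcr2, the chemokine receptor of mature neutrophils, had 122 CPM (implanted) and 129 CPM (non-implanted), against 690 CPM (implanted) and 734 CPM (non-implanted), and Csf3r, the G-CSF receptor, 280 CPM (implanted) and 262 CPM (non-implanted), against 1973 CPM (implanted) and 1949 CPM (non-implanted). Of 16 growth factor and retention receptors 10 were lower and 1, Kit, higher. Kit had 8.93 CPM (implanted) and 10.1 CPM (non-implanted), against 0.995 CPM (implanted) and 1.43 CPM (non-implanted). The activation list was lower in 17 of 20 genes and higher in 0, with a median of -2.15 (implanted) and -1.91 (non-implanted). Il1b, the gene of interleukin-1β, had 240 CPM (implanted) and 230 CPM (non-implanted), against 4051 CPM (implanted) and 3508 CPM (non-implanted). Ccl6, which encodes a chemokine, had the lowest log2 ratio of the genes compared outside the rule. Its ratio was 0.0348 (0.0320 to 0.0379) among implanted and 0.0422 (0.0394 to 0.0452) among non-implanted cells. Amica1, Ifitm1, Pla2g7, Ccl4, Cxcl2, Wfdc17, Fgl2 and Sirpb1b, with Gm5483 and Gm5150, made up the rest of the low end, at log2 ratios between -4.62 and -3.84. Interferon response genes were lower in 9 of 21 and higher in 0, with a median of -1.20 (implanted) and -0.88 (non-implanted), though Ifitm3, the most abundant of them, had 802 CPM (implanted) and 859 CPM (non-implanted), against 913 CPM (implanted) and 963 CPM (non-implanted).

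Respiratory chain and secretory genes had positive median ratios. Of 70 nuclear genes of the respiratory chain, 13 were at least 2-fold higher and 0 lower, with a median of 0.67 (implanted) and 0.61 (non-implanted). Ndufv3, a subunit of complex I, had 190 CPM (implanted) and 197 CPM (non-implanted), against 52.1 CPM (implanted) and 50.9 CPM (non-implanted), while Cox8a of complex IV had 416 CPM (implanted) and 423 CPM (non-implanted), against 545 CPM (implanted) and 517 CPM (non-implanted). Of 23 genes of the endoplasmic reticulum and secretion, 8 were higher and 1, the stress factor gene Ddit3, lower. Hsp90b1, the chaperone of the endoplasmic reticulum, stood at 162 CPM (implanted) and 146 CPM (non-implanted), against 27.5 CPM (implanted) and 28.1 CPM (non-implanted). In the S100 and annexin list 5 of 14 were higher and 4 lower: Anxa1, which encodes annexin A1 of granules and cytosol, had 3523 CPM (implanted) and 3790.0 CPM (non-implanted), against 764 CPM (implanted) and 841 CPM (non-implanted), and S100a6 had 2129 CPM (implanted) and 2300 CPM (non-implanted), against 8727 CPM (implanted) and 8612 CPM (non-implanted). Zmpste24, the protease that trims prelamin A, and Lta4h, which makes leukotriene B4, followed Chil3 at the top of the genes compared outside the rule. Their log2 ratios were 4.43 (implanted) and 4.77 (non-implanted) for Zmpste24 and 4.50 (implanted) and 4.42 (non-implanted) for Lta4h. Fmnl2, Abca13, Erg, Olfml2b, Tmem216 and Ffar2 completed the high end, at log2 ratios between 3.56 and 4.50.

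**Figure D2:**
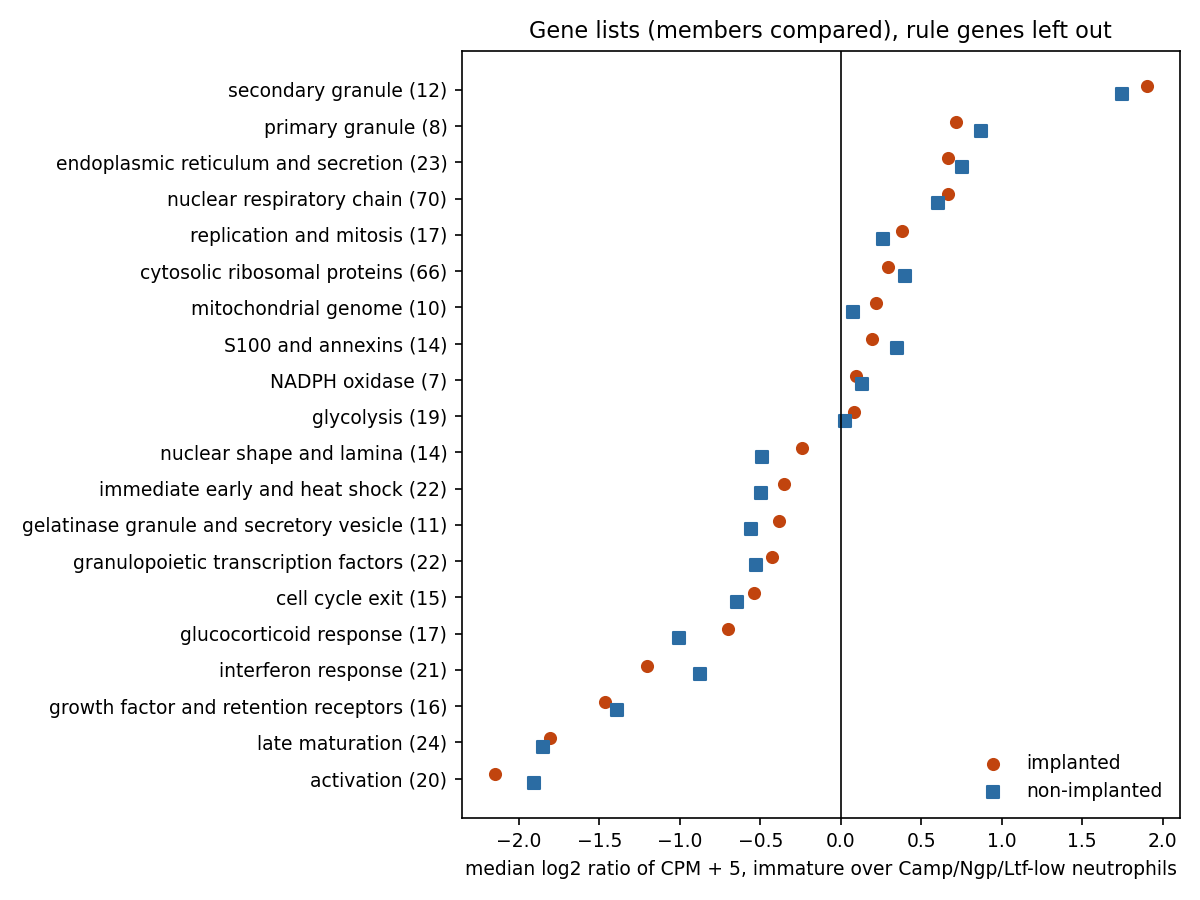
Median log2 ratio of CPM plus 5 (horizontal axis) of immature over Camp/Ngp/Ltf-low neutrophils for 20 gene lists (rows, with the number of genes compared), circles for the implanted and squares for the non-implanted library. Secondary granule genes lie highest (1.90 implanted, 1.75 non-implanted) and activation genes lowest (-2.15 implanted, -1.91 non-implanted), and the libraries lie close to each other in most lists.

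Immature neutrophils were not uniform, and secondary granule and late maturation transcripts were ordered mostly in opposite directions along the share of Camp, Ngp and Ltf. The share was split at 3, 6 and 10% into 4 bins, which held, from low to high, 71, 123, 307 and 308 implanted and 59, 121, 311 and 415 non-implanted cells. Since the bins were cut on 3 of the genes, the other genes' levels along them are a description of cells ordered by the rule's own measure. Of 402 list genes compared, 59 were higher in each successive bin and 46 lower in each, in both libraries and with Camp, Ngp and Ltf left out of the totals. Of 23 late maturation genes, 17 were lower in each successive bin and 0 higher. Of 11 gelatinase granule and secretory vesicle genes 5 were lower in each and 0 higher, the direction of the late maturation list. Of 12 secondary granule genes 6 were higher in each and 1 lower, and 20 of 68 respiratory chain and 14 of 65 ribosomal protein genes were higher in each, with 0 lower.

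Named genes show how steep these gradients were. Retnlg, which encodes a resistin-like secreted protein, had 35005, 16549.5, 6559 and 1607 CPM from the lowest to the highest bin among implanted and 34871, 20724, 6817 and 1475 CPM among non-implanted cells. Chil3 ran the opposite way, with 571, 2077, 3989 and 6856 CPM (implanted) and 451, 1755, 4001 and 6965 CPM (non-implanted), and Fcnb went with it, at 7.28, 46.7, 106 and 263 CPM (implanted) and 0, 30.6, 80.5 and 307 CPM (non-implanted). Cebpe also ordered the bins, with 106, 170, 311 and 476 CPM (implanted) and 126, 230, 368 and 480 CPM (non-implanted). Mmp8 had 3205, 2626, 1697 and 588 CPM (implanted) and 3233, 2792, 1826 and 623 CPM (non-implanted). The lowest bin thus lay above the low neutrophils (1488 CPM implanted, 1566 CPM non-implanted), and the highest bin below them. In cycling cells Mmp8 was at 59.6 CPM (implanted) and 112 CPM (non-implanted). Mmp9, which encodes gelatinase B, likewise had its highest level in the lowest bin, at 2470 CPM (implanted) and 2542 CPM (non-implanted), against 1657 CPM (implanted) and 1837 CPM (non-implanted) in low neutrophils and 140 CPM (implanted) and 175 CPM (non-implanted) in cycling cells. Ly6g peaked at the other end of the group, in the highest bin, at 1122 CPM (implanted) and 1100 CPM (non-implanted), with 315 CPM (implanted) and 342 CPM (non-implanted) in low neutrophils and 325 CPM (implanted) and 371 CPM (non-implanted) in cycling cells.

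**Figure D3:**
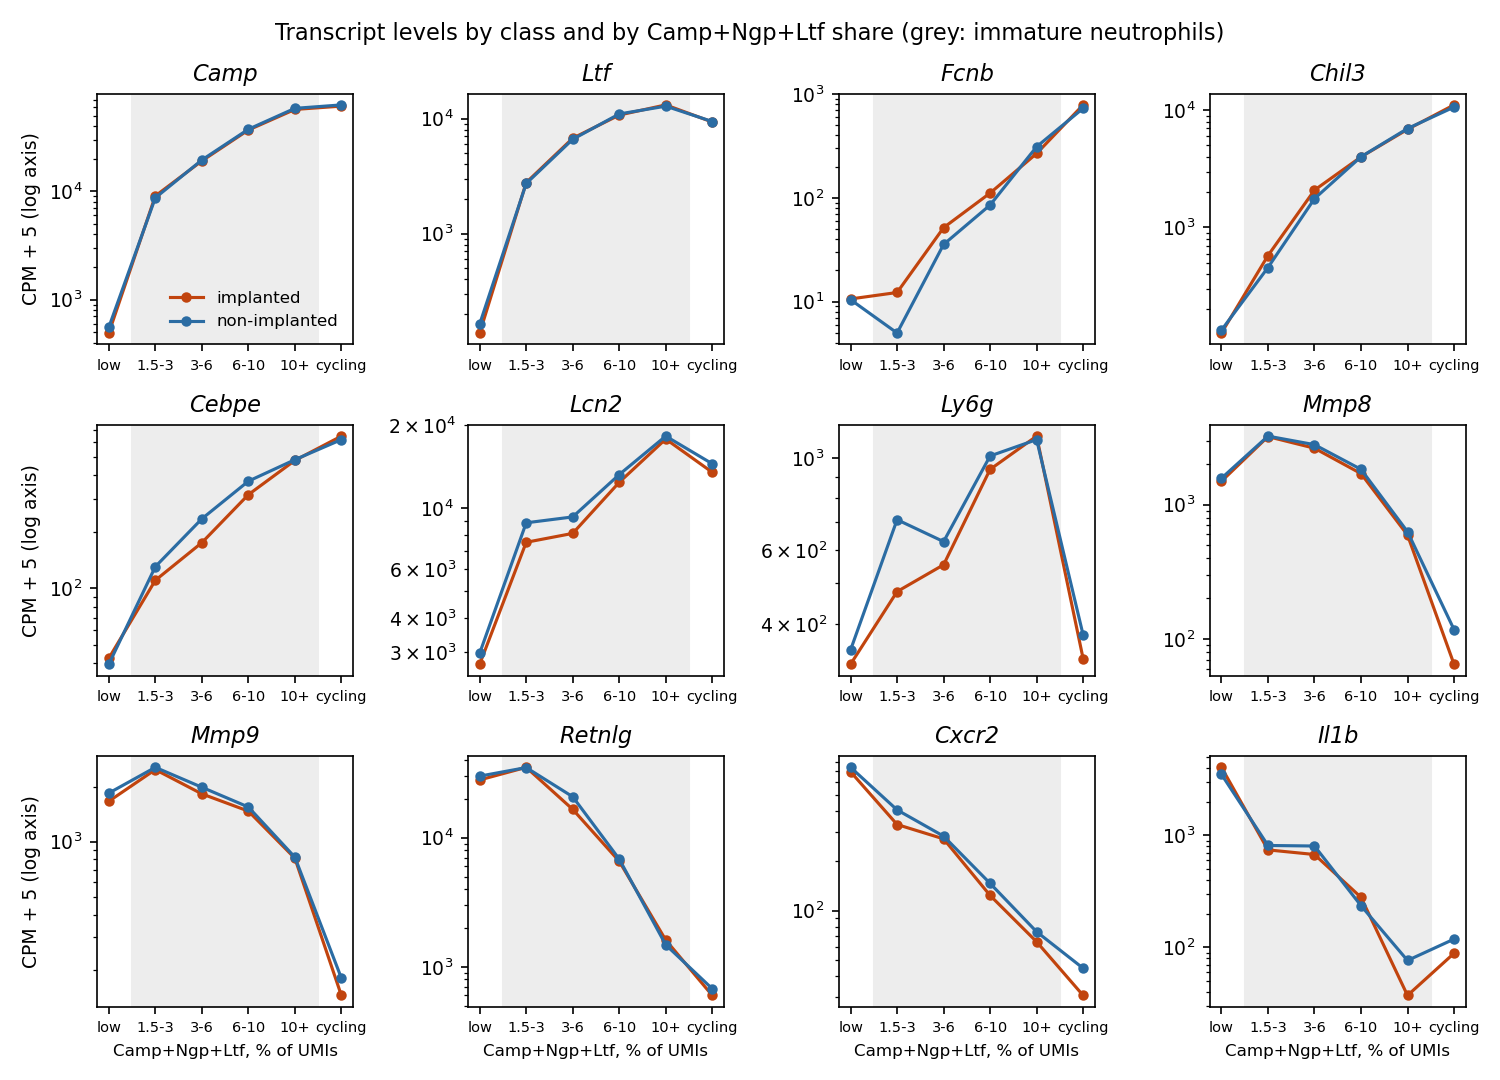
CPM plus 5 (vertical log axis) of 12 genes in Camp/Ngp/Ltf-low neutrophils, in the 4 bins of immature neutrophils by Camp, Ngp and Ltf share (grey) and in cycling cells, with 1 line for each library. Chil3, Fcnb and Cebpe are higher in each successive bin, Retnlg, Cxcr2 and Mmp8 lower in each, and Mmp8 and Mmp9 are highest in the 1.5 to 3% bin.

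Depth varied along the same order. The median UMI count per bin, from low to high share, was 3665, 3895, 5095 and 6831 among implanted and 4337, 4220, 5308 and 7145 among non-implanted cells, and CPM corrects for totals but not for other differences that go with depth. The cells of the implanted library lay less often in the highest bin: 38.1% of implanted and 45.8% of non-implanted immature neutrophils had a share of 10% or more, a difference of -7.73 points (-12.4 to -3.06). At 1000 UMIs per cell the shares were 40.4% (implanted) and 45.6% (non-implanted), a difference of -5.16 points (-9.83 to -0.440). This difference bears on every comparison between the libraries of genes that vary along the bins.

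Against cycling cells past the same 1.5% minimum, immature neutrophils were low in division genes and high in genes of later granules. Of 9529 genes, 265 (2.78%) were at least 2-fold higher and 914 (9.59%) at least 2-fold lower in both libraries, and the rule used 6 cycle genes to make this contrast. All 30 replication and mitosis genes outside the rule were lower, with a median log2 ratio of -3.65 (implanted) and -3.49 (non-implanted), beside -0.13 over all genes in each library. The median share of Camp, Ngp and Ltf was 9.11% (implanted) and 9.56% (non-implanted) in immature neutrophils, against 11.8% (implanted) and 12.2% (non-implanted) in cycling cells. Camp was lower in the immature cells, with 42194 CPM (implanted) and 45439 CPM (non-implanted), against 61142 CPM (implanted) and 62745 CPM (non-implanted) in cycling cells. Ltf was higher in the immature cells, at 10888 CPM (implanted) and 11145 CPM (non-implanted), against 9340.3 CPM (implanted) and 9433 CPM (non-implanted). Mmp8, Retnlg and Mmp9 had the largest ratios. Retnlg had 7168 CPM (implanted) and 6655 CPM (non-implanted), against 596 CPM (implanted) and 672 CPM (non-implanted) in cycling cells. Genes named for this contrast were chosen after its values were seen. In the gelatinase granule and secretory vesicle list 7 of 11 were higher and 0 lower. Fpr1, the formyl peptide receptor, had 102 CPM (implanted) and 121 CPM (non-implanted), against 14.0 CPM (implanted) and 18.3 CPM (non-implanted). Acvrl1, a receptor gene of the TGF-β family, had 78.1 CPM (implanted) and 55.6 CPM (non-implanted), against 9.41 CPM (implanted) and 5.99 CPM (non-implanted) in cycling cells and 16.3 CPM (implanted) and 14.8 CPM (non-implanted) in low neutrophils.

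The implanted library was set against the non-implanted library within the immature neutrophils, to see how they differed 33 days after implantation. Most genes differed little. Of 7549 genes, 113 (1.5%) were at least 1.5-fold higher and 38 (0.503%) at least 1.5-fold lower in the implanted cells. The median log2 ratio was 0.03, and under trimmed mean of M values scaling the split was 86 higher and 53 lower. Each ratio rests on 1 library per side, and the calls mark size, not significance. Of the 12 genes with the highest ratios, 7 had most of their implanted UMIs in the same barcode. Cldn5, the claudin of endothelial tight junctions, had 77 UMIs among implanted and 0 among non-implanted cells, at least 31.2-fold higher against a floor of 3 counts per library, and all 77 lay in 1 barcode. That barcode, with 28813 UMIs and 6314 genes, also held between 61.9% and 98.6% of the implanted UMIs of Flt1, St6galnac3, Dlc1, Mecom, Tshz2 and Pltp. At the other end, 78.3% of the non-implanted UMIs of Pf4, the platelet factor 4 gene, lay in 1 barcode, and its log2 ratio was -1.77 with and -0.19 without the 2 barcodes. Without them 90 genes were higher and 39 lower.

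Genes with at least 1000 UMIs depend less on single cells, and they are described next. This selection was made after the values were seen. Of 1217 such genes, 13 (1.07%) were at least 1.5-fold higher and 4 (0.329%) at least 1.5-fold lower in the implanted library. Antxr2 (chr5:97882783-98031043, minus strand), the gene of anthrax toxin receptor 2, a receptor for basement membrane proteins, was the most abundant of those higher. It had 1066 CPM in implanted and 608 CPM in non-implanted immature neutrophils, a ratio of 1.75 (1.68 to 1.83), and a UMI in 75.5% (implanted) and 68.1% (non-implanted) of cells. It was also higher in implanted low neutrophils, at 2242 CPM (implanted) and 1535 CPM (non-implanted), and in cycling cells, at 245 CPM (implanted) and 138 CPM (non-implanted). Thbs1 (chr2:118111876-118127133, plus strand), which encodes thrombospondin 1, had 751 CPM (implanted) and 452 CPM (non-implanted), a ratio of 1.66 (1.58 to 1.75). Its ratio was 1.18 (1.13 to 1.23) in low neutrophils and 2.78 (2.41 to 3.21) in cycling cells.

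Both genes varied along the bins as well, so the libraries were compared within each bin. From the lowest to the highest bin, Antxr2 had 2005, 2138, 1303 and 466 CPM among implanted and 1688, 1273, 743 and 309 CPM among non-implanted cells, higher in the implanted library in all 4. Thbs1 had 1172, 1721, 916 and 302 CPM (implanted) and 1275, 907, 611 and 201 CPM (non-implanted). It was lower in the implanted library in the lowest bin and higher in the other 3. With the same weight for every bin, the log2 ratio of Antxr2 was 0.56 instead of 0.80 and that of Thbs1 0.45 instead of 0.73, and neither then passed 1.5-fold. Cd14 (chr18:36725067-36726798, minus strand), the co-receptor for lipopolysaccharide, had 150 CPM (implanted) and 78.0 CPM (non-implanted), a ratio of 1.92 (1.71 to 2.16), was higher in all 4 bins and had a log2 ratio of 0.69 with bins weighted equally. In low neutrophils it stood at 299 CPM (implanted) and 136 CPM (non-implanted). Mpp7, a scaffold protein gene of cell polarity, had 465 CPM (implanted) and 269 CPM (non-implanted) and a log2 ratio of 0.81 with bins weighted equally.

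The other 9 genes on the higher side were Cnnm2, Cdadc1, Gm12854, Ralgapa1, Ets2, Sipa1l1, Rasa2, Tpd52 and Gm10320, with log2 ratios between 0.63 and 0.92. Ets2, which encodes an ETS-family transcription factor, had 217 CPM (implanted) and 132 CPM (non-implanted). Rasa2, which encodes a GTPase-activating protein for Ras, had 488 CPM (implanted) and 305 CPM (non-implanted), and Tpd52 304 CPM (implanted) and 190 CPM (non-implanted). Tpd52 had log2 ratios of 0.08 in low neutrophils and 0.10 in cycling cells, against 0.67 in immature neutrophils, the difference not being tested. Some of these calls were lost: after thinning Ets2 had a log2 ratio of 0.58, Rasa2 0.48 and Gm10320 0.31, with bins weighted equally Ets2 had 0.52, Rasa2 0.49, Tpd52 0.44 and Gm10320 0.58, and Ralgapa1 had 0.50 without the upper limits. On the lower side stood Myl6, Prex2, Ppia and Rps10-ps1. Myl6 (chr10:128490860-128494145, minus strand), the gene of an essential light chain of nonmuscle myosin, had 303 CPM (implanted) and 462 CPM (non-implanted), a ratio of 0.656 (0.616 to 0.70), and was lower in the implanted library in all 4 bins, in low neutrophils (199 CPM implanted, 281 CPM non-implanted) and in cycling cells (202 CPM implanted, 332 CPM non-implanted). Ppia, cyclophilin A, had 103 CPM (implanted) and 168 CPM (non-implanted). After thinning, Myl6 (-0.55), Ppia (-0.51) and Prex2 (-0.44) were under 1.5-fold. Several ribosomal protein genes and processed copies (Rps2, Rpl19, Rps19, Rps27a, Rps13-ps2, Rpsa-ps10, Gm7434 and Gm4987) also lay at the low end, with Rps2 at 62.1 CPM (implanted) and 119 CPM (non-implanted). Reads of these and of Ppia can be shared with near-identical copies, so their single-gene values are uncertain.

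**Figure D4:**
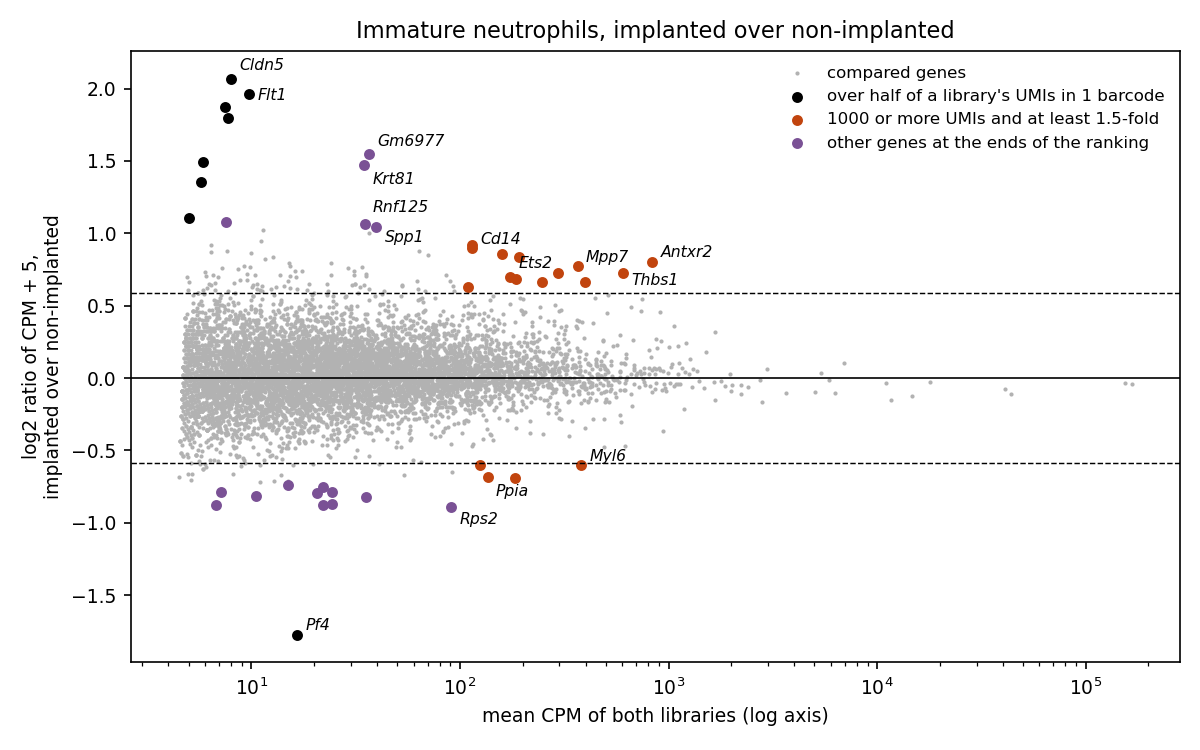
Log2 ratio of CPM plus 5, implanted over non-implanted immature neutrophils (vertical axis), by mean CPM of both libraries (log axis), with 1 point per gene for 7549 genes and dashed lines at 1.5-fold. Black points are the 8 genes with most of a library's UMIs in 1 barcode, and orange points the 17 genes with at least 1000 UMIs past 1.5-fold, among them Antxr2 (0.80) and Myl6 (-0.60).

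**Figure D5:**
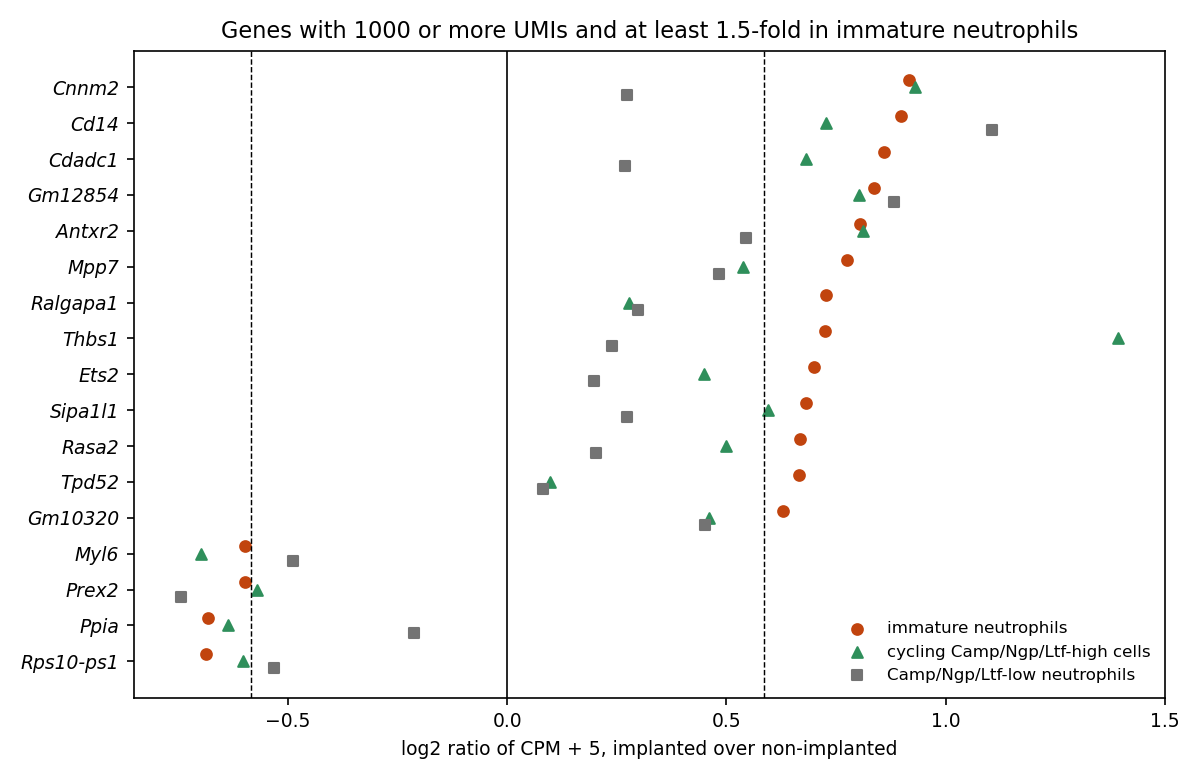
Log2 ratio of CPM plus 5, implanted over non-implanted (horizontal axis, dashed lines at 1.5-fold), of the 17 genes with at least 1000 UMIs past 1.5-fold in immature neutrophils, shown for immature neutrophils (circles), cycling cells (triangles) and low neutrophils (squares). Each gene has the same sign in the 3 classes, with Thbs1 from 0.24 in low neutrophils to 1.39 in cycling cells.

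Among 7124 genes for which no cell held over 10% of a library's UMIs, 72 genes (1.01%) were at least 1.5-fold higher and 27 (0.379%) at least 1.5-fold lower in implanted cells, a selection also made after the values were seen. Spp1, the osteopontin gene, had 55.2 CPM (implanted) and 24.3 CPM (non-implanted), and was higher in the implanted library in all 4 bins, with 72.8, 83.5, 61.8 and 40.1 CPM (implanted) and 29.6, 28.9, 27.9 and 20.8 CPM (non-implanted) from low to high share. Its level in low neutrophils was 66.4 CPM (implanted) and 75.7 CPM (non-implanted). The log2 ratio of Spp1 in immature neutrophils was 1.04, and 2.53 without the upper limits on other programmes. Apoe, an apolipoprotein gene abundant in macrophages, had 91.4 CPM (implanted) and 48.4 CPM (non-implanted), and March3, a ubiquitin ligase gene, 84.3 CPM (implanted) and 43.6 CPM (non-implanted). Rnf125, another ubiquitin ligase gene, had 49.0 CPM (implanted) and 20.9 CPM (non-implanted). Both ratios fell under 1.5-fold in 1 alternative, March3 at a log2 ratio of 0.44 with bins weighted equally and Rnf125 at 0.38 after thinning. Krt81, a keratin gene outside this set because 1 cell held 18.1% of its non-implanted UMIs, had 53.4 CPM (implanted) and 16.1 CPM (non-implanted), against 2.32 CPM (implanted) and 0.714 CPM (non-implanted) in low neutrophils. Gm6977, with 57.1 CPM (implanted) and 16.2 CPM (non-implanted), had the highest log2 ratio of these genes, 1.55, and a ratio of counts of 3.52 (2.77 to 4.49).

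Granule, maturation and inflammatory genes as groups lay near a ratio of 1 between the libraries. Medians over the 20 lists were between -0.12 and 0.12, beside 0.03 over all genes. In the secondary granule list 1 of 12 genes was at least 1.5-fold higher and 0 lower. That gene, Olfm4, which encodes olfactomedin 4, had 65.2 CPM (implanted) and 40.2 CPM (non-implanted). Camp had 42194 CPM (implanted) and 45439 CPM (non-implanted), and Ngp 39913 CPM (implanted) and 41994 CPM (non-implanted). The late maturation list had 0 of 23 past 1.5-fold in either direction, and its largest ratio was that of Il1r2, the decoy receptor for interleukin-1, at 616 CPM (implanted) and 412 CPM (non-implanted). In the activation list 1 of 20 was higher, Icam1 at 7.68 CPM (implanted) and 3.42 CPM (non-implanted), and Il1b had a ratio of 1.05 (0.966 to 1.13). Interferon response genes had 0 of 13 past 1.5-fold in either direction and a median of -0.12. All 13 log2 ratios were below 0, from -0.31 to -0.004. Of 16 glucocorticoid response genes 1 was higher and 0 lower, with a median of -0.06: Zbtb16 had 8.72 CPM (implanted) and 3.42 CPM (non-implanted), and Fkbp5, a widely used glucocorticoid target, 35.5 CPM (implanted) and 46.7 CPM (non-implanted). In the ribosomal protein list 0 of 65 were higher and 7 lower, with a median of -0.03. Over all 7549 genes 1.5% were higher and 0.503% lower, so lower calls were a larger part of this list. Reads of ribosomal protein genes can be shared with near-identical copies, so these calls are uncertain.

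Transcripts of other cell types were low in the immature neutrophils and for some types their sums differed between the libraries. The 12 macrophage markers summed to 240 CPM (implanted) and 189 CPM (non-implanted), a ratio of 1.27 (1.16 to 1.38), with 0 of 12 at 0 UMIs and 1 of 6 compared, Apoe, past 1.5-fold. Apoe is itself part of this sum. It made up most of the difference in the sum between the libraries, so the sum is no separate observation. The 10 erythroid markers summed to 77.0 CPM (implanted) and 41.2 CPM (non-implanted), a ratio of 1.87 (1.59 to 2.21), and the 6 platelet markers to 11.8 CPM (implanted) and 44.1 CPM (non-implanted), most of the platelet sum in the non-implanted library being Pf4 from 1 barcode. The 14 cochlear markers summed to 13.9 CPM (implanted) and 9.40 CPM (non-implanted), a ratio of 1.48 (1.02 to 2.15). Of them 5 (implanted) and 6 (non-implanted) were at 0 UMIs, among them Sox10 and Coch in both libraries. The T and NK list summed to 26.6 CPM (implanted) and 19.5 CPM (non-implanted), most of it Cd3d. Of its 9 genes, 7 (implanted) and 6 (non-implanted) were at 0 UMIs, among them Cd3e, Trac and Klrb1c in both. The basophil and mast cell list summed to 1.04 CPM (implanted) and 0.684 CPM (non-implanted). The monocyte list summed to 607 CPM (implanted) and 689 CPM (non-implanted), of which Ly6c2, also made by immature granulocytes, gave 531 CPM (implanted) and 635 CPM (non-implanted). Stem and progenitor markers summed to 22.4 CPM (implanted) and 21.5 CPM (non-implanted), B cell markers to 69.3 CPM (implanted) and 67.7 CPM (non-implanted), and eosinophil markers to 53.4 CPM (implanted) and 53.2 CPM (non-implanted), most of it Ear2. The osteoclast list summed to 1273 CPM (implanted) and 1249 CPM (non-implanted), nearly all of it Mmp9, and Ctsk had 1.66 CPM (implanted) and 1.03 CPM (non-implanted). The part of these transcripts in the differences between the libraries was not tested. Xist had 24.3 CPM (implanted) and 33.7 CPM (non-implanted) and Ddx3y 35.3 CPM (implanted) and 35.7 CPM (non-implanted), and the labels give males and females pooled in both.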

How the data were processed

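The deposited matrices hold whole-number UMI counts per gene and barcode, made by the authors with Cell Ranger 3.0.1 per the file headers. The submitters' processing notes name Cell Ranger, Seurat, mm10 and GRCm38. The aligner was not given in the sources used here, nor was the annotation release. Of 48709 gene features, 48349 identifiers matched GENCODE M21 without version, which gave coordinates. Features that are not genes (107) were left out of totals.

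UMIs were summed over the cells of a class and library and scaled to counts per 1000000 UMIs (CPM). Log2 ratios used CPM plus 5 and genes with at least 50 UMIs. Calls mark 1.5-fold between libraries, or 2-fold in both libraries between classes. With 1 library per group there was no test. Intervals are Clopper-Pearson for shares, Newcombe for their differences and exact conditional ones for ratios of counts. Genes named were the 12 at each end of the implanted over non-implanted and the low neutrophil contrasts, and list genes. Other named genes were chosen after values were seen. The cells and lists were chosen with earlier results of these data known. Doublets were kept. An alternative without the barcodes that Scrublet (scanpy 1.11.5) ranked highest, at 0.8% per 1000 barcodes, removed 37 implanted and 47 non-implanted immature neutrophils. Thinning drew 1000 UMIs per cell and left out cells with fewer. Promoters came from RefSeq on GRCm38.p6. Python 3.11.15, numpy 2.4.6, pandas 2.3.3 and scipy 1.17.1 were used, and the ratio and interval steps were tested on simulated data. Depth was 4816447 UMIs in implanted and 5849689 in non-implanted immature neutrophils. Alternatives varied the thresholds, cell filters, scaling, pseudocount, UMI minimum and cell weights.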

Additional observations from a re-analysis of the deposited data

Results flagged for a closer look

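H2-Eb1, which encodes an MHC class II chain, had opposite signs in 2 neutrophil classes. Its log2 ratio of implanted over non-implanted was -0.74 in immature neutrophils, at 9.97 CPM (implanted) and 20.0 CPM (non-implanted), and 1.09 in Camp/Ngp/Ltf-low neutrophils, at 42.1 CPM (implanted) and 17.1 CPM (non-implanted). In immature neutrophils 1 cell held 36.8% of the 117 non-implanted UMIs, and 71 of the 117 lay in the bin of 3 to 6% share. The log2 ratio there ran from -1.33 to -0.27 over the alternatives. With 1 library on each side the difference between the classes was not tested.

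Outside the gene measurements, 7 UMIs of immature neutrophils in the non-implanted library, against 0 in the implanted library, lay on spike-in control features, which no comparison used.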

How the results depend on the processing

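No paired analysis was possible because there was 1 library per group. The share of immature cells differed by 4.62 points instead of -0.0992 when taken of immature and low neutrophils together. Between libraries, genes higher in the implanted library numbered 251 with a pseudocount of 1, 24 with 20, 48 at a minimum of 200 UMIs, 178 with no minimum, 217 with equal weight per bin and 72 with at most 10% of UMIs in 1 cell. Genes lower numbered 67 after thinning, 136 with a pseudocount of 1, 5 with 20, 15 at 200 UMIs and 94 with equal weight per bin. Against low neutrophils, genes higher numbered 1188 without upper limits, 391 after thinning, 1094 with a pseudocount of 1 and 268 with 20, and genes lower 534 with 20. List medians kept their sign in 350 of 400 alternative values between libraries, where most medians lie near 0, and in 749 of 760 against low neutrophils. Between libraries, those that turned include the interferon list (0.029 without upper limits) and the mitochondrial genome list (-0.044 with equal weight per cell). Against low neutrophils, the replication list turned after thinning, to -0.19 (implanted) and -0.52 (non-implanted), as did the mitochondrial genome list, to -0.13 (implanted) and -0.08 (non-implanted). Without upper limits the nuclear shape list turned to 0.38 (implanted) and 0.26 (non-implanted), and the S100 and annexin list to -0.08 (implanted). The cause was not tested. The named genes checked here were chosen for large ratios in the same contrasts, so a kept sign or fold was largely fixed by that choice. Genes named only from the lists were not in this check. The genes checked kept their sign in 886 of 886 values between libraries and 912 of 912 against low neutrophils. Of these values, 39 of the 886 and 154 of the 912 moved beyond the counting interval. Between libraries 34 of 48 named genes fell under 1.5-fold in at least 1 alternative (62 of 886 values), and against low neutrophils 0 of 912 values fell under 2-fold. Genes near the UMI minimum are limited by counting error.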

Other observations

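Glycolysis and nuclear shape genes of the immature neutrophils were not described above. Of 19 glycolysis genes, 1 was at least 2-fold higher than in low neutrophils in both libraries and 3 lower. Over all 8660 genes compared, 7.02% were higher and 10.0% lower, and the counts of both lists are only a description. Ldha, which encodes lactate dehydrogenase A, had 493 CPM (implanted) and 454 CPM (non-implanted), against 153 CPM (implanted) and 159 CPM (non-implanted) in low neutrophils, and the lower ones were the transporter genes Slc2a1, Slc2a3 and Slc16a3. Of 14 genes of nuclear shape and lamina, 1 was higher and 3 lower. Syne1, which encodes a nuclear envelope spectrin-repeat protein, had 1163 CPM (implanted) and 1082 CPM (non-implanted), against 172 CPM (implanted) and 184 CPM (non-implanted). Lmnb1, the lamin B1 gene, had 645 CPM (implanted) and 524 CPM (non-implanted), against 2019 CPM (implanted) and 2048 CPM (non-implanted).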
